A study of Mesocricetus auratus with 10 samples.

Results

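The mevalonate pathway turns acetyl-CoA units into isoprenoid building blocks and joins these to squalene, the first committed precursor of cholesterol. The liver is a main site of this synthesis, and the genes of the pathway are known as shared targets of the sterol-regulated transcription factor SREBP-2. Side branches lead to dolichol, coenzyme Q and the lipid anchors of prenylated proteins. The set described here holds 8 genes of the enzymes between HMG-CoA synthase and squalene synthase, with the geranylgeranyl branch point, in the liver of golden hamsters (Mesocricetus auratus) on a high fat diet (HFD). Members were all probes of the array, controls aside, whose gene name is HMGCS1, MVK, PMVK, MVD, IDI1, FDPS, FDFT1 or GGPS1. This gave 37 of 116452 probes, on 13 assembled transcripts, and all 8 genes were among the 13827 named genes that passed the filter on dim probes.

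Liver RNA of 10 male hamsters on HFD was set against 1 pool of liver RNA from 10 hamsters on a standard diet (STD), on 2 custom Agilent arrays per animal with the dyes exchanged. The labels give no strain, age or length of feeding. Values are log2 ratios, HFD liver divided by STD pool, the mean of the 2 arrays of an animal being 1 replicate, and means carry the SD between the 10 animals. The STD hamsters entered as pooled RNA, so the spread between them is unknown and the test takes the pool as a fixed reference. In bulk liver, fewer cells that express a gene and less RNA of it per cell cannot be told apart. Of 19 measured hepatocyte markers, 18 were well above background in HFD RNA on all 20 arrays and the remaining one, FGG, on 18, so that the labelled tissue was present in every RNA.

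The probes are DNA of 60 bases whose sequence is given in the array's files, while their place in a genome is not. Those shown here bear on the results below. Both pairs were found by comparing all member probes with each other: the capitals mark the stretch of one probe whose reverse complement lies in the other, 35 bases for FDFT1 and 52 for MVK. The HMGCS1 probes were chosen because they lie on the same transcript and gave very different ratios. The IDI1 probes are the brightest and one near background, and the FDPS probe stands for its gene. Each is written from 5′ to 3′ as deposited, and whether a probe matches the mRNA of its gene or the opposite strand is not stated.
FDFT1, CUST_69723_PI426903241: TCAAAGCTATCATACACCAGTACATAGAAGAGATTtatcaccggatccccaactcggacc
FDFT1, CUST_76899_PI426903241: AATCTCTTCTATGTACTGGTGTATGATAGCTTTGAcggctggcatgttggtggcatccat
MVK, CUST_76567_PI426903241: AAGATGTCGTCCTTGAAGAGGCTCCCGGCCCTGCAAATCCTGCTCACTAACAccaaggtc
MVK, CUST_78128_PI426903241: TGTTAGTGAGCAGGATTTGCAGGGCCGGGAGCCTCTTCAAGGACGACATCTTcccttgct
HMGCS1, CUST_82464_PI426903241: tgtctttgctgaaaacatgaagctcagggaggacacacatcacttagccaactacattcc
HMGCS1, CUST_82460_PI426903241: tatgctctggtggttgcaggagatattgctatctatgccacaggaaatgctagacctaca
IDI1, CUST_2143_PI427370424: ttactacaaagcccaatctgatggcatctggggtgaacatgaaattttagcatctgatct
IDI1, CUST_2141_PI427370424: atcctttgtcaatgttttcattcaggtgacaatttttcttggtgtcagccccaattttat
FDPS, CUST_62851_PI426903241: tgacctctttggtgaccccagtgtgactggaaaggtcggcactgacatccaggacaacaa
No member probe shared 20 or more bases, on either strand, with a probe of another name.

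Taking each gene by its brightest probe, 7 of the 8 genes were called lower in HFD liver, that is below 0 with an adjusted p under 0.05 (limma, Benjamini-Hochberg over all genes), and none was higher. Of all genes, 60.3% were called, 28.9% lower and 31.4% higher. FDFT1, IDI1 and FDPS were at least 2-fold lower, as were 0.419% of all genes. Counted by probe, 32 of the 36 member probes that passed the filter were called lower against 28.4% of all probes, and 17 were at least 2-fold lower against 0.356%. The 4 that were not called were 1 of MVK, 2 of GGPS1 and the only one of MVD, and no member probe was called higher. The median over the 36 probes was -0.88, beside -0.000759 over all probes kept, and 27 of the 36 were below 0 in every animal. The size of the difference was uneven between the probes of the 8 genes. FDFT1, HMGCS1, IDI1 and FDPS were far below 0 on most of their probes, and all probes of PMVK, GGPS1, MVK and MVD lay between -0.50 and -0.0012. Since the strand that each probe matches is not stated, this contrast is one between probes, and its part in the mRNA of the genes was not tested.

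**Figure D1:**
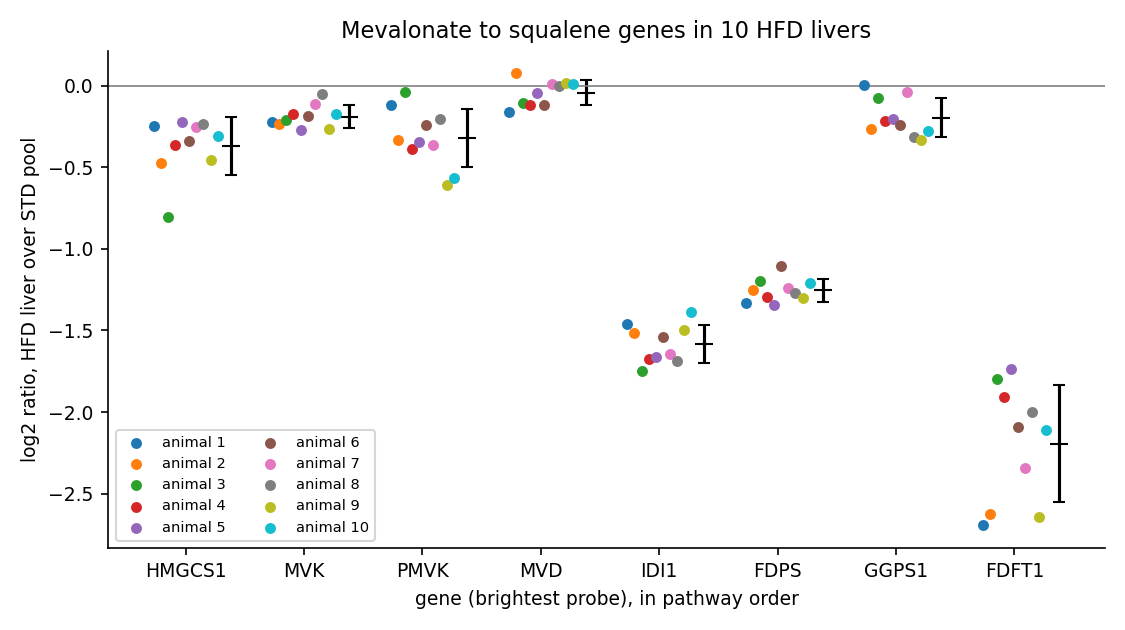
Log2 ratio, HFD liver against the STD pool, for the brightest probe of each gene, in pathway order. Points are the 10 animals and the bar beside them is the mean with the SD; FDFT1, IDI1 and FDPS lie below -1 in every animal, while MVD lies on both sides of 0.

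The pathway opens with HMGCS1, the cytosolic HMG-CoA synthase, which joins acetoacetyl-CoA and acetyl-CoA. Its brightest probe read -0.80 in the lowest animal, -0.32 at the median and -0.23 in the highest, a mean of -0.37 ± 0.18 (n = 10) or 1.29-fold lower (limma adjusted p = 3.27e-05). The other 5 probes of HMGCS1 gave means between -1.87 and -1.41. In the signals as processed by the scanner software these lay between -2.31 and -1.82. Their median per animal lay between -1.82 and -1.41, with a mean of -1.57 ± 0.14 or 2.98-fold lower. The brightest probe thus lay above the other 5 in 10 of 10 animals, by 1.20 ± 0.18, and the ranges did not overlap. This probe and 4 of the others were designed on one and the same assembled transcript, so the gene call rests on the least changed of its 6 probes. The probe CUST_82464_PI426903241 also differed between the dye orientations, with a mean of -0.58 on the 10 arrays with HFD in Cy5 and -0.17 on the 10 with HFD in Cy3. On the latter arrays alone its adjusted p was 0.0589. On the same Cy3 arrays CUST_82460_PI426903241, printed beside it above, read -1.45, and on the Cy5 arrays -1.85.

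**Figure D2:**
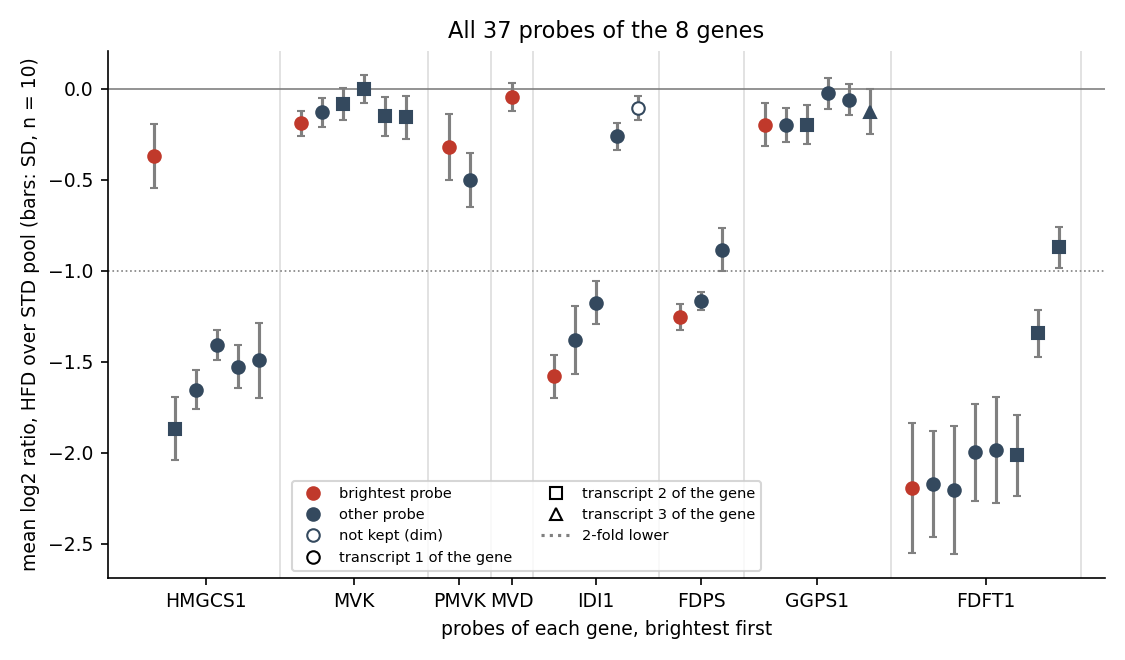
Mean log2 ratio of each of the 37 probes with its SD over 10 animals, ordered within a gene by brightness, with the brightest in red, the 1 probe that was too dim open, and the shape giving the transcript. The brightest HMGCS1 probe stands more than 1 log2 unit above the other 5, and IDI1 runs from -1.58 at its brightest probe to -0.10 at its dimmest.

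The 3 enzymes that follow in the mevalonate branch, with the kinases MVK and PMVK and the decarboxylase MVD, carry mevalonate through phosphorylation and decarboxylation to isopentenyl diphosphate. PMVK, the phosphomevalonate kinase, ranged from -0.61 to -0.04 with a median of -0.34. It was 1.25-fold lower by its brightest probe (-0.32 ± 0.18, adjusted p = 0.000124) and 1.42-fold lower by the other (-0.50 ± 0.15), each below 0 in 10 of 10 animals. The strand of the PMVK mRNA that these probes match is not stated and was not tested, so the sizes are those of the probes. The ratio of the brightest probe moved with the array: it averaged -0.57 on the 6 arrays with HFD in Cy3 of animals 5 to 10 and -0.21 on the other 14. A fit without those 6 gave -0.16, still called lower.

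MVK, which phosphorylates mevalonate first, was below 0 in 10 of 10 animals by its brightest probe. Its values ran from -0.27 through a median of -0.20 to -0.05, with a mean of -0.19 ± 0.07 or 1.14-fold lower (adjusted p = 3.49e-05). Of its 6 probes 5 were called lower, with means between -0.19 and -0.08, and the sixth read -0.0012 ± 0.079. That one did not pass the test, and the median over the 6 was -0.14.

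MVD, which makes isopentenyl diphosphate, had 1 probe, and this did not pass the test. Its values were -0.16 at the lowest, -0.02 at the median and 0.08 at the highest, below 0 in 6 of 10 animals, with a mean of -0.04 ± 0.08 (limma adjusted p = 0.186). With the authors' own log2 ratios the same probe gave -0.14 and an adjusted p of 0.0052, so that the call for this probe depends on how the ratios were made. Whether it matches the MVD mRNA or the opposite strand is not stated and was not tested. The ratio is thus that of the probe only.

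IDI1 interconverts isopentenyl and dimethylallyl diphosphate, the starter of every longer isoprenoid. Its brightest probe lay at -1.75 in the lowest animal, -1.59 at the median and -1.39 in the highest. All 10 animals thus stood well below the pool, and the mean of -1.58 ± 0.12 was 2.99-fold lower (adjusted p = 4.48e-12). The 5 IDI1 probes lie on 1 transcript and were each printed in 3 spots per array, whose median SD within an array lay between 0.11 and 0.14 log2 units over the 5 probes. Of these, the next 2 in brightness gave -1.38 ± 0.19 and -1.18 ± 0.12.

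The last 2 IDI1 probes were dim. CUST_2141_PI427370424 passed the background threshold for pool RNA on 13 of 20 arrays and for HFD RNA on 0, so its ratio of -0.26 only gives a bound. The signal of this probe was at least 1.15-fold lower in HFD liver, with mean log2 signals of 6.45 in the pool and 6.19 in HFD RNA. Its limma adjusted p was 5.28e-06 over all probes. Whether it matches the IDI1 mRNA or the opposite strand is not stated and was not tested, so the bound holds for the probe only. The fifth IDI1 probe did not pass the filter. The size for IDI1 also moved with the background correction, since the brightest probe read -2.06 with a smaller normexp offset of 10, -2.44 in the authors' log2 ratios and -2.56, or 5.88-fold lower, in the scanner software's processed signals. For FDFT1 and FDPS the same 3 ways gave between -2.25 and -2.23 and between -1.28 and -1.27. The direction for IDI1 was lower under each of the 28 alternatives, some of which left the mean as it was. Its rank was not fixed: IDI1 was the lowest member with the processed signals and with the authors' ratios, and FDFT1 was the lowest otherwise.

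**Figure D3:**
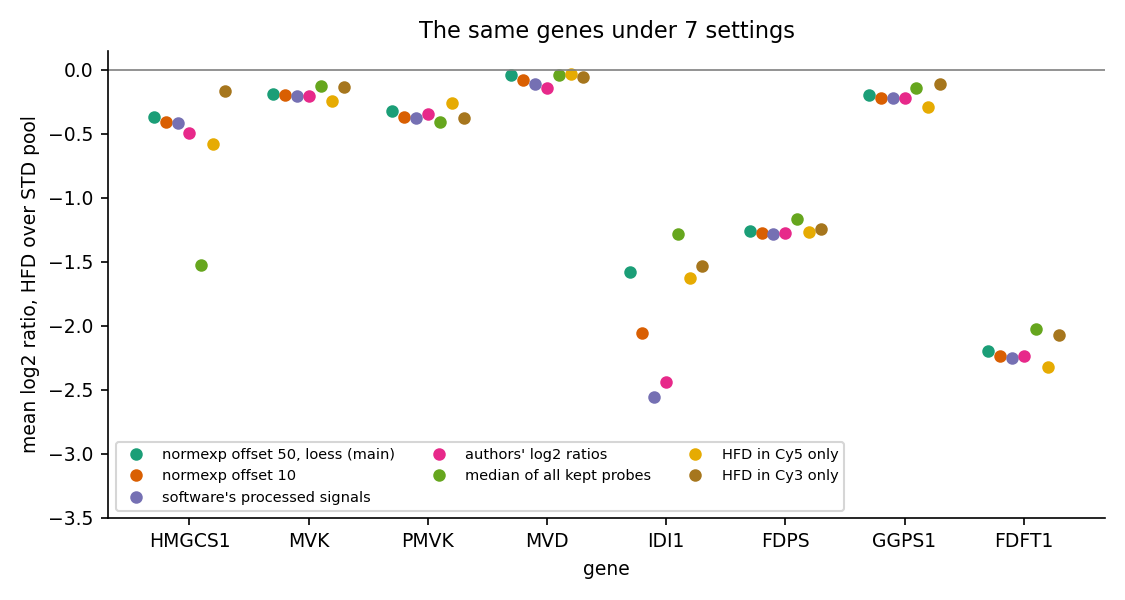
Mean log2 ratio of each gene under 7 settings, each point 1 setting, 5 of them on all 20 arrays and 2 on the 10 arrays of one dye orientation. IDI1 spreads from -2.56 to -1.28 and HMGCS1 from -1.53 with the median of its probes to -0.17 with HFD in Cy3 only, whereas FDPS stays between -1.28 and -1.17.

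FDPS, farnesyl diphosphate synthase, builds the unit from which both the sterol and the other isoprenoid branches depart. Its brightest probe was the least variable of the 3 strongly lowered genes, with values from -1.34 through a median of -1.26 to -1.10. The mean of -1.25 ± 0.07 was 2.39-fold lower (adjusted p = 2.47e-12) and lay below 0 on all 20 single arrays. The other 2 probes gave -1.17 ± 0.05 and -0.88 ± 0.12, both on the same transcript. All 3 probes were well above background in both RNAs on every array.

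GGPS1 makes geranylgeranyl diphosphate, used for protein prenylation and not for sterols. It ranged from -0.34 in the lowest animal through -0.23 at the median to 0.0033 in the highest, below 0 in 9 of 10 animals. The mean of -0.20 ± 0.12 was 1.15-fold lower (adjusted p = 0.000408). Its 6 probes on 3 transcripts read between -0.20 and -0.02 and 4 were called lower. On the arrays with HFD in Cy3 alone the brightest probe gave -0.11 with an adjusted p of 0.0669.

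FDFT1, squalene synthase, takes the first step that belongs to sterols alone. Its brightest probe had the lowest mean ratio of all 13827 genes after normexp with an offset of 50, but with the processed signals IDI1 (-2.56) and SQLE (-3.17) were among those below it (-2.25). Values ran from -2.69 in animal 1 through a median of -2.10 to -1.74 in animal 5, and the mean of -2.19 ± 0.36 was 4.58-fold lower (adjusted p = 2.13e-09). FDFT1 was also the most variable member between animals: its SD was the highest of any member probe, beside a median of 0.12 over the kept member probes and 0.11 over all probes kept. Animals 1, 2 and 9 lay lowest, at -2.69, -2.63 and -2.64, and animals 3, 4 and 5 highest, at -1.80, -1.91 and -1.74. The 2 arrays of an animal gave like values, and all 20 arrays lay between -2.89 and -1.61. Animals 3 and 4 were alone on 2 of the 7 slides, whose means were -1.89 and -1.81, while the 2 slides that held animals 1 and 2 averaged -2.44 and -2.47. The part of the slide in the spread between animals was not tested. With the slide as a random block the mean was -2.22.

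**Figure D4:**
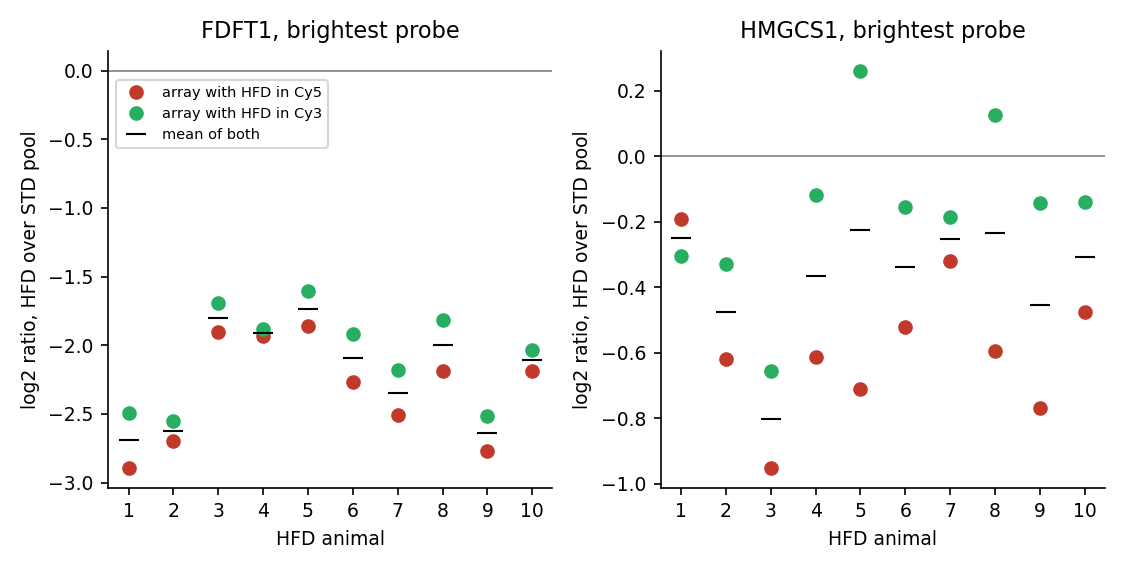
Log2 ratios of the brightest FDFT1 probe (left) and the brightest HMGCS1 probe (right) on both arrays of each animal, red with HFD in Cy5 and green with HFD in Cy3, with a dash at their mean. FDFT1 keeps the difference between animals in both orientations, while HMGCS1 lies higher on the Cy3 array in 9 of 10 animals and above 0 on it in animals 5 and 8.

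FDFT1 was read by 8 probes on 2 assembled transcripts that lie in opposite orientation over the shared stretches printed above. The 5 probes of the first transcript averaged -2.11 ± 0.28 per animal, or 4.32-fold lower, and the 3 of the second -1.41 ± 0.13, or 2.66-fold lower. The values of the first ran from -2.58 to -1.78 over the animals and those of the second from -1.64 to -1.20, without overlap. This gap depended on the background correction: with the scanner software's processed signals the 3 probes of the second transcript averaged -2.69, -2.31 and -1.47, and the 5 of the first lay between -2.36 and -2.16. Probes CUST_69723_PI426903241 and CUST_76899_PI426903241, which share 35 bases as reverse complements, read -2.21 ± 0.35 and -2.01 ± 0.22. A further pair of FDFT1 probes shared 33 bases in this way and read -2.17 ± 0.29 and -0.87 ± 0.11. With the processed signals the first pair read -2.36 and -2.69, in the opposite order, and the further pair -2.32 and -1.47. All 8 probes were called lower and were below 0 in every animal. Which orientation corresponds to the FDFT1 mRNA is not stated in the files, and whether RNA of both strands was present was not tested.

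MVK had the same arrangement. The 2 probes of one transcript averaged -0.16 ± 0.05 and the 4 of the other -0.10 ± 0.04. The printed pair that shares 52 bases read -0.13 ± 0.08 for CUST_76567_PI426903241 and -0.15 ± 0.11 for CUST_78128_PI426903241. Both were called lower, and they differed by less than the SD of either.

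Ordered by the brightest probe, FDFT1 was lower than IDI1, IDI1 lower than FDPS and FDPS lower than HMGCS1, each in 10 of 10 animals. HMGCS1 and PMVK did not separate, HMGCS1 being lower in 5 of 10 animals with a difference of 0.05 ± 0.28. GGPS1 was below MVK in 6 of 10, whereas MVK was below MVD in 10 of 10. When the median of a gene's kept probes stood for it, HMGCS1 (-1.53 ± 0.13) moved to the second place, below FDFT1 (-2.03 ± 0.25) and ahead of IDI1 (-1.28 ± 0.13) and FDPS (-1.17 ± 0.05). In that order FDFT1 was below HMGCS1 in 9 of 10 animals, HMGCS1 below IDI1 in 10 and IDI1 below FDPS in 8. The 4 strongly lowered genes then stood apart from PMVK (-0.41 ± 0.15), since FDPS was below PMVK in 10 of 10 animals.

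Whether the members varied together between animals was examined on the same medians, over 28 pairs of genes. HMGCS1 and IDI1 had a Pearson r of 0.87 (n = 10, permutation p = 0.00151, adjusted over the 28 pairs 0.0423) and a Spearman rho of 0.733 (adjusted p = 0.588). Without the 2 animals farthest from the HMGCS1 median, r was 0.748. Within the arrays of one dye orientation, r was 0.844 with HFD in Cy5 and 0.778 with HFD in Cy3, and it was 0.648 and 0.617 within the 2 scan sessions that held most arrays. The relation thus kept its sign within batches, while the rank correlation did not pass the adjustment. No other pair passed: FDFT1, the most variable member, gave r between -0.444 and 0.501 with the other genes. The 10 animals share the pool and pairs of arrays share slides.

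As a description, the genes outside the set whose ratios followed the mean of the 8 members most closely over the 10 animals were GPR4 (r = 0.971), STARD5 (0.915), BC053749 (0.914), CHRM4 (0.907) and DCP1A (0.901), the 5 of 13819 genes with r above 0.9. Their mean ratios were small: STARD5 was 0.24 ± 0.16, GPR4 -0.07 ± 0.12 and DCP1A -0.28 ± 0.11. They were picked for r among all genes, and no test was made of it.

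The steps beyond squalene were lower on most genes as well. Of 12 measured gene names between squalene and cholesterol, 10 were called lower and 1 higher, with a median of -0.34, beside -0.35 for the 8 members and 0.00816 for all genes. Since SC5D and SC5DL are names of 1 gene, these are 11 genes, 9 of them lower. Of all genes, 28.9% were called lower and 31.4% higher. SQLE, the squalene epoxidase that follows FDFT1, was 3.05-fold lower (-1.61 ± 0.13, adjusted p = 5.44e-12), but was well above background in HFD RNA on only 12 of 20 arrays. The lathosterol oxidase gene gave -0.62 ± 0.14 as SC5DL and -0.29 ± 0.14 as SC5D. DHCR7, the last enzyme of one branch, gave -0.53 ± 0.09 with HFD RNA well above background on 7 arrays. With so few, the sizes for SQLE and DHCR7 are uncertain, and the processed signals gave -3.17 and -2.12. SQLE, SC5DL and DHCR7 were below 0 in 10 of 10 animals.

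Upstream of the set, 3 of 7 genes of the entry into the pathway were called lower and 1 higher, beside 28.9% and 31.4% of all genes, with a median of -0.20. ACLY, which supplies cytosolic acetyl-CoA from citrate, was 1.92-fold lower (-0.94 ± 0.15, adjusted p = 3.73e-09). ACAT2, the cytosolic thiolase that makes acetoacetyl-CoA for HMGCS1, did not pass the test at 0.02 ± 0.15 (adjusted p = 0.637).

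The branches that use the same isoprenoids for dolichol, coenzyme Q and prenylation held 21 measured genes. Of these, 7 were called lower and 7 higher, near the 28.9% and 31.4% of all genes, with a median of -0.05. TRIT1, which isopentenylates transfer RNA, was 1.41-fold higher (0.50 ± 0.10, adjusted p = 5.00e-08) and ZMPSTE24, a protease of prenylated prelamin A, 1.38-fold higher (0.46 ± 0.15, adjusted p = 1.43e-06). NUS1, a subunit of the dolichol-making prenyltransferase, gave 0.26 ± 0.12 by its brightest probe. Its probes differed, as 3 of the 9 kept were called lower and 3 higher, with a median of 0.03. RABGGTB, the catalytic subunit of Rab geranylgeranyl transferase, fell by 0.22 on the log2 scale (SD 0.06, adjusted p = 5.97e-06).

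Among 17 measured genes of sterol sensing and regulation, 6 were lower and 7 higher, beside 28.9% and 31.4% of all genes, with a median of 0.03. INSIG1, the sterol-regulated retention factor of SREBP, was 2.41-fold lower (-1.27 ± 0.22, adjusted p = 4.55e-09) and STARD4, a cholesterol transfer protein, 2.09-fold lower (-1.06 ± 0.13, adjusted p = 2.95e-10). SREBF1, which encodes SREBP-1, was 2.42-fold higher (1.27 ± 0.28, adjusted p = 3.00e-08), and MYLIP, a sterol-induced ubiquitin ligase of lipoprotein receptors, 1.83-fold higher (0.87 ± 0.20, adjusted p = 5.37e-08). INSIG1 and STARD4 were below 0 in all 10 animals, SREBF1 and MYLIP above it. The size for STARD4 moved with the background correction, to -1.92 with the processed signals.

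**Figure D5:**
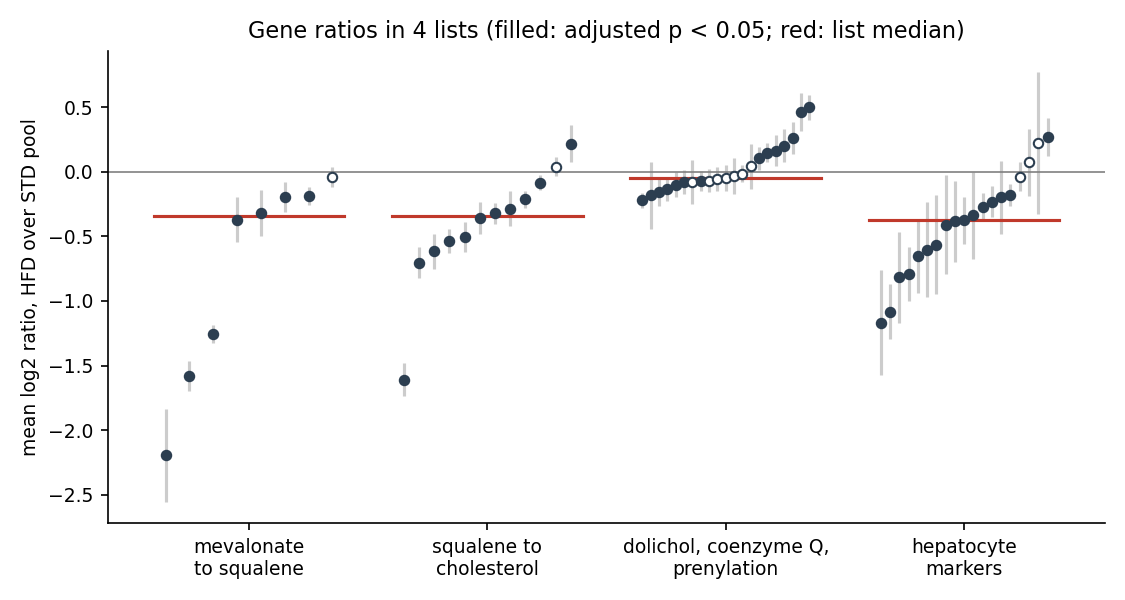
Mean log2 ratio of each measured gene with its SD over 10 animals in 4 gene lists, filled where the adjusted p was under 0.05, with the list median in red. The medians were -0.35 for mevalonate to squalene, -0.34 for squalene to cholesterol, -0.05 for the other isoprenoid uses and -0.38 for hepatocyte markers.

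Hepatocyte markers moved in the same direction as the members. Of 19 measured, 15 were called lower and 1 higher, with a median of -0.38, and their mean per animal lay between -0.56 and -0.28. ALB, the albumin gene, gave -0.23 ± 0.12, FGB, a fibrinogen chain, -1.17 ± 0.40, and APOB 0.27 ± 0.15. The sign for ALB changed with the dye orientation, from 0.35 with HFD in Cy5 to -0.81 with HFD in Cy3. The means of TTR, HP, CYP7A1, HPX and RBP4 also changed sign between the orientations, and those of the other hepatocyte markers did not. FDFT1, IDI1 and FDPS lay below the mean of the hepatocyte markers in every animal. Of 14 macrophage and Kupffer cell markers, 8 were higher and 3 lower, with a median of 0.18 and animal means from -0.04 to 0.41. The 7 lymphocyte markers held 5 lower, the 11 of stellate cells 3 lower and 3 higher, the 9 of endothelium 2 lower and 3 higher, and the 5 of bile duct cells 1 lower, beside 28.9% lower and 31.4% higher among all genes. The part of cell composition in the members' ratios was not tested.

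Animals 5 to 10 had 6 arrays with HFD in Cy3, and these formed a set of their own. Across genes they correlated with each other at a median r of 0.882, the other 14 arrays among themselves at 0.631, and the 2 sets with each other at 0.492. On the 6 arrays and the 14, the brightest probe of FDFT1 averaged -2.01 and -2.27 and that of IDI1 -1.48 and -1.62. That of FDPS averaged -1.19 and -1.28 and that of MVK -0.12 and -0.22. These 4 probes were below 0 on all 20 arrays, but the other MVK probes on only 9 to 18. The brightest HMGCS1 probe averaged -0.04 and -0.51. The other 5 HMGCS1 probes averaged between -1.81 and -1.35 on the 6 arrays and were below 0 on all 20. The brightest PMVK probe, as given above, went the other way. The source of the difference between the arrays was not tested.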

How the data were processed

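Each array's spot intensities in green (Cy3) and red (Cy5), with their local background, were made with Agilent Feature Extraction 10.7.3.1, per the file headers, and the processed intensities of the same deposited tables were background-subtracted and dye-normalised by that software, per the file headers. The log2 ratios that the authors deposited for each probe and animal were made with limma, per the submitters' processing notes, in a version and by steps not given in the sources used here. Against the scanner values these columns ran as HFD over STD pool. Their medians for animals 1 to 10 were 3.44e-05, -0.0144, -0.000399, -0.0017, 0.0185, -0.0122, -0.00981, 0.00754, -0.00119 and -0.0105, and they correlated with the ratios computed here at r from 0.92 to 0.973. Their centring and exact scale are unknown, and which array of an animal held HFD in Cy5, hence the sign of every ratio, was read from the names of the arrays.

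Here intensities were corrected with normexp (offset 50) and normalised within arrays by loess in limma 3.58.1 (R 4.3.3), where control spots and spots marked as outliers had weight 0 and were then dropped. Values were averaged over the spots of a probe, then over the 2 arrays of an animal. A probe was kept when well above background in either RNA on at least 10 of 20 arrays with a value on all (103879 probes), and the brightest kept probe stood for a gene. No spot of a member was saturated, and the number of arrays limits the precision. Mean log2 ratios were tested against 0 with lmFit and eBayes, two-sided, and p-values were adjusted by Benjamini-Hochberg over the 13827 genes or over all kept probes. The labels number the HFD animals 1 to 10. The test was tried on simulated data. Correlations between members used 100000 permutations.

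The members and lists were chosen with earlier results of these data known. Besides the members, up to 4 called genes of each other pathway list are named (the 2 with the smallest p, then the 2 largest changes), with ACAT2, the 5 genes most like the members, and a few cell type markers picked after their values were seen. IDI2 was not among the tested genes, and some genes that the rule takes are not reported here. Gene names are those of the array design, all 8 members' names also occurring among the RefSeq symbols of the assembly BCM_Maur_2.0. The alternatives covered background correction, normalisation, the authors' ratios, filters, probe summaries, dye orientation, slide, scan session and leaving out each animal.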

Additional observations from a re-analysis of the deposited data

Results flagged for a closer look

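For each of the 37 member probes, the highest and the lowest of the 10 animals were compared with the rest, and 3 probes had 1 animal whose gap to its neighbour took up most of the group's range. Chance sets 1 animal apart in this way in about 1 of 20 groups. The brightest HMGCS1 probe lay at -0.80 in animal 3, while the other 9 animals ran from -0.47 to -0.23. Both arrays of animal 3 were low on it, at -0.95 with HFD in Cy5 and -0.66 with HFD in Cy3. Another HMGCS1 probe lay at -1.62 in animal 4, with -1.60 and -1.64 on its arrays, the others running from -1.44 to -1.32. An MVK probe lay at 0.12 in animal 1, with 0.18 and 0.06 on its arrays, where the other 9 animals lay between -0.17 and -0.05.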

How the results depend on the processing

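No member gene changed sign under the 28 alternatives, though not all of these moved a mean. The filters on dim probes, a normalisation between arrays, another variance model and the animal as a random block gave the same mean ratios as the main setting. Among the probes, the uncalled MVK probe at -0.0012 lay on both sides of 0, from -0.025 to 0.030. Between 5 and 8 of the 8 genes were called lower, the lowest count being on the arrays with HFD in Cy3 alone and the highest with the authors' log2 ratios, and 7 when any 1 animal was left out. By probe, 26 of the 30 that passed a strict filter were called lower, and 33 of 37 without a filter. Among the 36 probes of the main filter the count was lowest on the arrays with HFD in Cy5 alone, at 28. It was 29 with HFD in Cy3 alone and highest, at 33, with the slide as a random block. A call changed for HMGCS1 and GGPS1, lost with HFD in Cy3 alone (-0.17 and -0.11), and for MVD, gained with the authors' ratios (-0.14); the cause was not tested. Leaving out 1 animal kept FDFT1 between -2.25 and -2.14, IDI1 between -1.60 and -1.56 and FDPS between -1.27 and -1.24. The background moved more. With 14 arrays, 2529 genes and 18892 probes were called lower in place of 3994 and 29507. Within scan session 3, fewer arrays called 2360 genes and 15298 probes lower, and 2735 genes and 14957 probes higher in place of 4343 and 27740. No paired analysis was possible because there is 1 group of animals, each measured against the same pool. Sizes near background are limited by the signal, as for IDI1, SQLE, DHCR7, STARD4 and the second FDFT1 transcript.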
